A study of Mus musculus with 4 samples.

Results

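Collagens and the enzymes and chaperones that process them were examined in 4T1Ch9 mammary tumors, as a group of 37 genes among the 17097 genes measured. The group holds 30 genes of collagen chains and 7 genes of proteins that modify, fold or trim procollagen. A gene counts as a member where a probe set of the array carries its symbol and no other, and the probe set with the highest mean over the 4 arrays stands for it. All 37 listed genes were measured, by 60 probe sets in total, with 18 genes resting on a single probe set. 4T1Ch9 is a cherry-tagged triple-negative mammary line of Balb/c origin. In the study 50000 cells were injected into the mammary fat pad, tumors grew for 10 days, and mice then received 7 days of vehicle or of trametinib at 1 mg/kg daily, an inhibitor of the kinases MEK1 and MEK2 (MEKi). Young adult female wild-type mice were used, so the tumors held host stroma and immune cells beside the injected line. Total RNA of bulk tumor was hybridized to Affymetrix MG-430PM arrays, 2 labelled MEKi and 2 labelled vehicle. No source used here says whether each array is a separate mouse, so p-values measure the variation among these 4 arrays, part or all of which may be technical.

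Collagens are triple helices of 3 chains, and the chain composition sets where the protein goes. Fibrillar collagens such as types I, III and V form the cables of connective tissue and are made mainly by fibroblasts. Type IV forms the sheet of basement membranes, on which epithelial and endothelial cells rest, and type VI forms beaded filaments between fibrils and cells. Before secretion, prolyl and lysyl hydroxylases modify the chains in the endoplasmic reticulum, the chaperone encoded by Serpinh1 holds the helix together, and proteinases outside the cell trim the ends, helped by the products of Pcolce and Pcolce2. A stroma rich in collagen is a known feature of breast tumors.

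The arrays did not group by label, and every value below is named by the label of its array. Values are log2 expression after RMA, so 1 unit is a factor of 2. Over 45037 probe sets (a description, since probe sets are no replicates) the Pearson correlation was 0.992 between MEKi 1 and vehicle 2, 0.978 between MEKi 2 and vehicle 1, and 0.927 between both MEKi arrays. B cell and T cell marker genes had medians from 9.35 to 9.87 in MEKi 1 and vehicle 2 and from 4.10 to 6.26 in the other arrays. Dusp6, a feedback phosphatase that ERK signaling induces, read 9.59 and 12.30 in MEKi 1 and 2, and 12.02 and 10.96 in vehicle 1 and 2. By this gene the array labelled MEKi 2 goes against its label, and no label was changed here. Each comparison by label is therefore given beside the difference of MEKi 1 from vehicle 1 and that of MEKi 2 from vehicle 2, the pairs of arrays with the same number, which have 1 array on each side and no test. Of the epithelial markers, Krt8 and Krt18, keratins of simple epithelium, lay between 10.43 and 12.92 in the 4 arrays. Of the 10 epithelial markers, 5 were lowest in MEKi 1, Krt8 and Krt18 among them (30% of all genes), and 5 in MEKi 2 (27.2%). In MEKi 2 Krt19 read 4.52, Cdh1 6.04 and Epcam 6.54, against 9.42, 8.25 and 9.23 in vehicle 2.

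Collagen and processing genes varied more between the arrays than most genes. Their median range over the 4 arrays was 1.53 log2 units, against 0.55 for all genes, and the range was 2 units or more in 10 of 37 (8.43% of all genes). Of the 37, 17 were highest in vehicle 1, against 20.1% of all genes, and 13 were highest in MEKi 2, a share near the 34.8% of all genes. The lowest array was MEKi 1 for 21 of 37, against 30% of all genes, and MEKi 2 for 12 of 37, against 27.2%. The median gap was 1.33 units between MEKi 1 and MEKi 2, 0.81 between the vehicle arrays and 0.29 between the label means, against 0.36, 0.28 and 0.14 for all genes. Within the vehicle label alone, 31 of 37 were lower in vehicle 2 than in vehicle 1 (48.1% of all genes), with a median difference of −0.79. Of the 37 genes, 11 stayed below 4.98, the lowest median of any array, in all arrays (33.3% of all genes), and their differences are between values near the floor of the array.

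**Figure D1:**
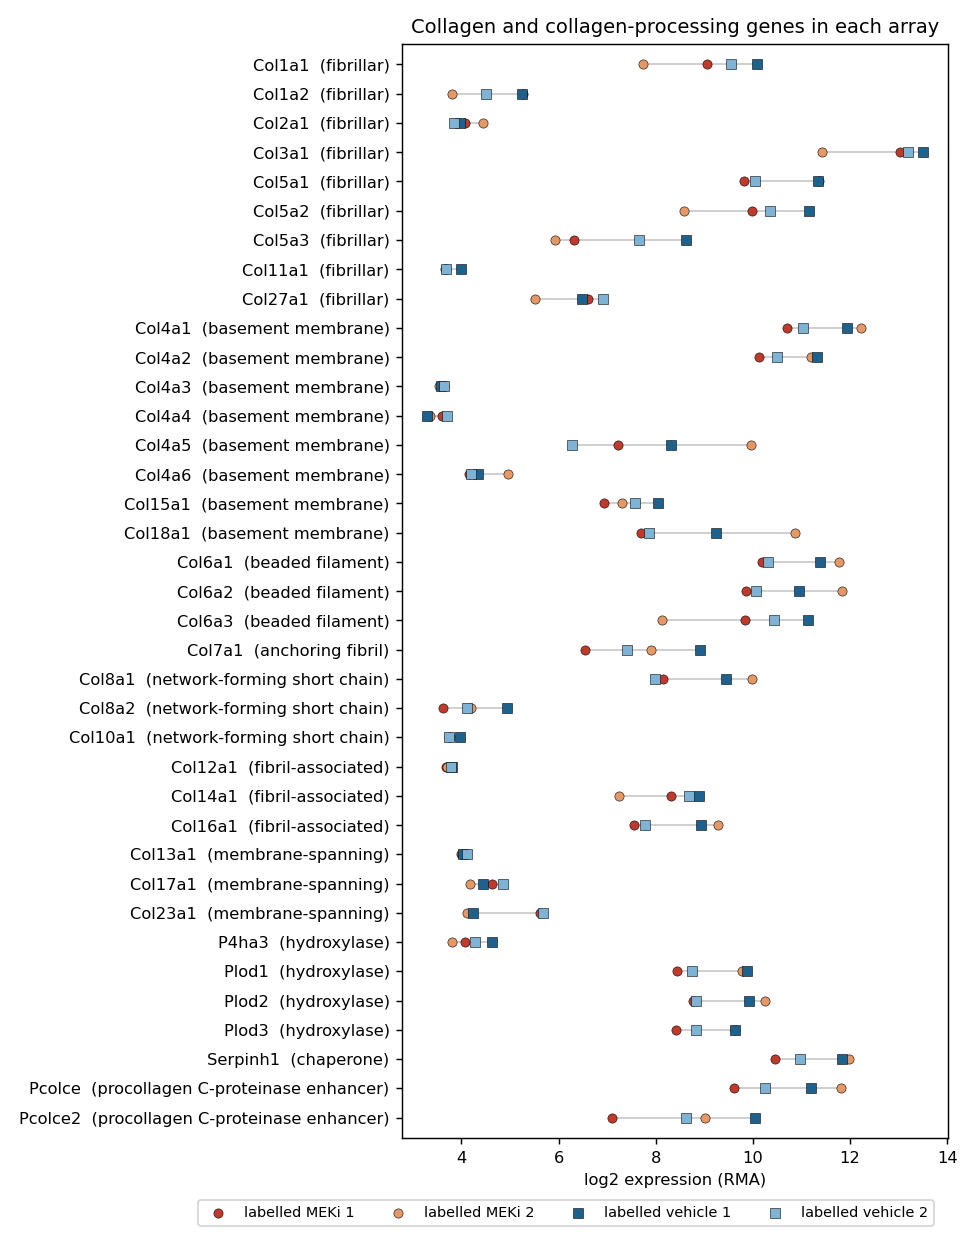
Log2 expression (RMA, horizontal axis) of the 37 genes, with 1 symbol for each of the 4 arrays (MEKi arrays as circles, vehicle arrays as squares) and a grey line from the lowest to the highest. Col6a3 has its lowest point in MEKi 2 at 8.12, where Col6a1 and Col6a2 have their highest.

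The genes fell into different array patterns. In one, expression was lower in MEKi 1 than in vehicle 1 and higher in MEKi 2 than in vehicle 2. This held for 19 of 37 genes, against 35.3% of all genes, and for 12 of 37 the difference was over 1 unit in both pairs, against 4.94% of all genes. These 12 were Col4a1, Col4a5, Col5a1, Col6a1, Col6a2, Col8a1, Col16a1, Col18a1, Plod1, Plod2, Serpinh1 and Pcolce. In the other, expression was lower in the MEKi array of both pairs, which held for 11 of 37 genes against 14.1% of all genes. It was lower by over 1 unit in both pairs for Col1a1, Col5a2, Col5a3 and Col6a3, which makes 4 of 37 against 0.573% of all genes. The reverse order in the 2 pairs, up in MEKi 1 and down in MEKi 2, was seen for a further 6 genes (34.1% of all genes), and Col2a1 alone was higher in both pairs (16.4%). Taking each pair alone, MEKi 1 was more than 1 unit below vehicle 1 for 22 of 37 genes (8.74% of all genes) and more than 1 above it for 1, Col23a1 (6.67%). MEKi 2 was more than 1 unit below vehicle 2 for 8 of 37 (9.15%) and more than 1 above it for 12 of 37 (8.25%).

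**Figure D2:**
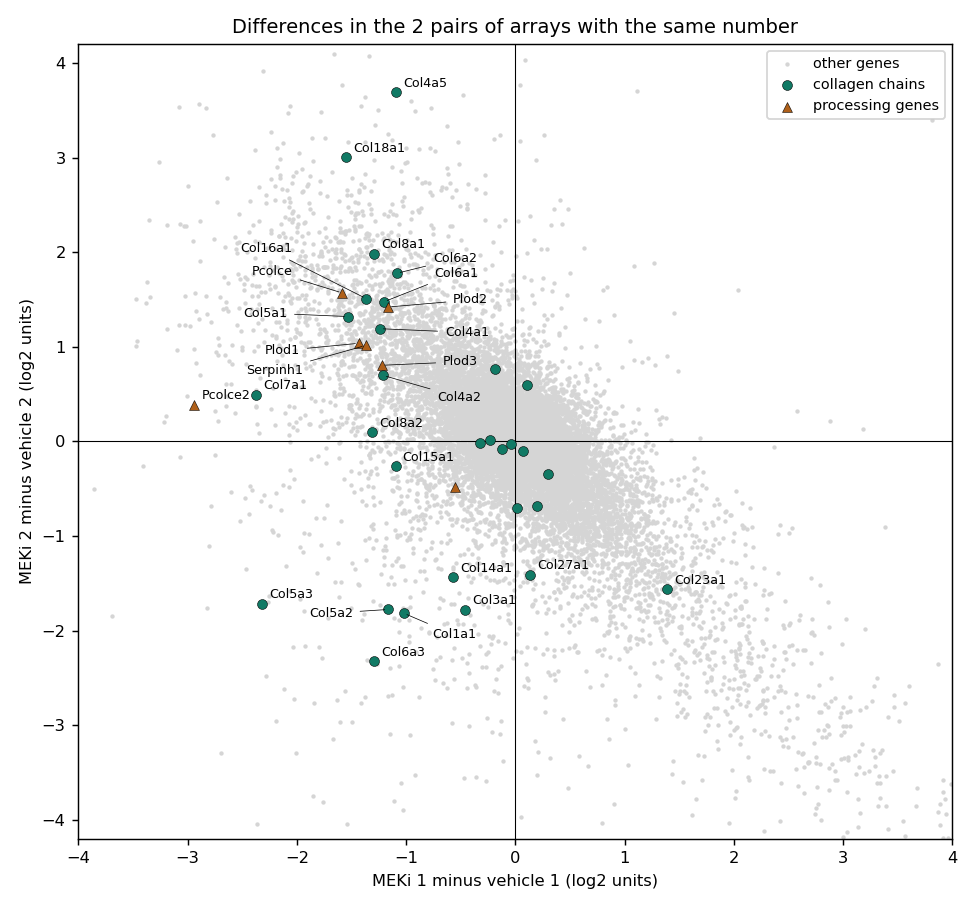
Log2 difference of MEKi 1 from vehicle 1 (horizontal axis) and of MEKi 2 from vehicle 2 (vertical axis) for 30 collagen chain genes (circles), 7 processing genes (triangles) and 16915 other genes (grey), with 145 other genes beyond the axes. Col1a1, Col5a2, Col5a3 and Col6a3 lie below −1 on both axes, and most processing genes lie at the upper left.

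Among fibrillar collagens, the chains of types I, III and V that were well above the floor were lower in both arrays labelled MEKi, with the exception of Col5a1. Col1a1, which encodes the main chain of type I collagen, read 9.06 and 7.73 in MEKi 1 and 2, and 10.09 and 9.55 in vehicle 1 and 2. Col3a1, the chain of type III collagen in pliable tissue, read 13.03 and 11.42 in MEKi 1 and 2, and 13.50 and 13.20 in vehicle 1 and 2. Both genes were lowest in MEKi 2, and their labels did not overlap. The partner chain gene Col1a2 read 5.26 and 3.80 in MEKi 1 and 2, and 5.24 and 4.50 in vehicle 1 and 2 on its single probe set, close to the floor, with overlapping labels. A further probe set of Col3a1 had the same order of arrays, between 7.67 and 10.40.

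The 3 chains of type V collagen, which nucleates fibrils of type I, did not move together. Col5a1 read 9.82 and 11.36 in MEKi 1 and 2, and 11.35 and 10.04 in vehicle 1 and 2, so that the high and the low arrays each carried both labels. Col5a2 read 9.98 and 8.58 in MEKi 1 and 2, and 11.15 and 10.35 in vehicle 1 and 2. Col5a3, a chain of more restricted expression, read 6.31 and 5.93 in MEKi 1 and 2, and 8.63 and 7.65 in vehicle 1 and 2. For Col5a2 and Col5a3 both MEKi arrays lay below both vehicle arrays. In the pair of MEKi 2 and vehicle 2, Col5a1 differed by 1.32, Col5a2 by −1.78 and Col5a3 by −1.72. The remaining probe sets of Col5a1 and Col5a2 had the same signs in both pairs, whereas the second probe set of Col5a3 stayed between 3.58 and 3.85. Of the other fibrillar genes, Col27a1 was lowest in MEKi 2 at 5.51 and lay between 6.47 and 6.92 elsewhere, and the cartilage genes Col2a1 and Col11a1 stayed between 3.66 and 4.45.

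Basement membrane collagens mostly followed the pattern of opposite differences. Col4a1 and Col4a2, whose products form the common type IV network, were highest in MEKi 2 and vehicle 1. Col4a1 read 10.70 and 12.23 in MEKi 1 and 2, and 11.94 and 11.04 in vehicle 1 and 2. Col4a2 read 10.12 and 11.19 in MEKi 1 and 2, and 11.33 and 10.49 in vehicle 1 and 2. The pair lies head to head in the genome, and in the RefSeq promoter table (build GRCm38.p6) the annotated transcripts, on opposite strands, overlap at their starts by 22 bases. That stretch is shown because an annotated start lies at each of its ends.
Col4a2 and Col4a1 start overlap, chr8:11312805-11312826, plus strand: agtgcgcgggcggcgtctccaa
Col4a5, which assembles with Col4a3 and Col4a4 or with Col4a6, had the widest range of the group, with 7.23 and 9.96 in MEKi 1 and 2, and 8.32 and 6.27 in vehicle 1 and 2. Its other probe set had the same order, between 5.22 and 8.83. Col4a6 starts 1343 bases from Col4a5 on the opposite strand. It also read highest in MEKi 2, at 4.97 against 4.15 to 4.34 in the other arrays, but all these values are near the floor. Col4a3 and Col4a4, a pair of neighbouring genes known from the kidney filter, stayed between 3.29 and 3.69.

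Col18a1 and Col15a1 encode related collagens of the basement membrane zone and differed in pattern. Col18a1, the precursor of the fragment endostatin, read 7.69 and 10.86 in MEKi 1 and 2, and 9.24 and 7.86 in vehicle 1 and 2. Its second probe set gave 7.54, 10.97, 9.16 and 7.82 in the same order of arrays. MEKi 2 stood highest and vehicle 1 next on both probe sets. Col15a1 read 6.94 and 7.31 in MEKi 1 and 2, and 8.04 and 7.57 in vehicle 1 and 2, with no overlap between labels. Col7a1, the chain of the anchoring fibrils below epithelium, read 6.55 and 7.91 in MEKi 1 and 2, and 8.92 and 7.41 in vehicle 1 and 2. It was lowest in MEKi 1 and its labels overlapped.

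Type VI collagen split in the same way as type V. Its 3 chains form 1 heterotrimer, in which the large chain of Col6a3 joins those of Col6a1 and Col6a2. Col6a1 read 10.18 and 11.78 in MEKi 1 and 2, and 11.38 and 10.31 in vehicle 1 and 2. Col6a2 read 9.86 and 11.84 in MEKi 1 and 2, and 10.94 and 10.07 in vehicle 1 and 2. Both were lowest in MEKi 1. Col6a3 read 9.84 and 8.12 in MEKi 1 and 2, and 11.13 and 10.44 in vehicle 1 and 2, and was lowest in MEKi 2. The difference of MEKi 2 from vehicle 2 was 1.48 for Col6a1, 1.78 for Col6a2 and −2.32 for Col6a3, and that of MEKi 1 from vehicle 1 was negative for all 3 genes (−1.20, −1.08 and −1.30).

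Some of these genes are neighbours in the genome. Among the 37 genes there are 5 pairs of neighbouring protein-coding genes in the RefSeq gene table, Col3a1 with Col5a2, Col6a1 with Col6a2, and the 3 type IV pairs. Col3a1 and Col5a2 were both lower in the MEKi array of both pairs, and Col6a1 and Col6a2 both had opposite differences, while Col6a3 lies apart on chromosome 1. Sequences before the starts are printed for chains that are made together but differed here, with Col3a1 and the chaperone gene Serpinh1 beside them. Each line gives the 120 bases before the annotated start from RefSeq (GRCm38.p6), written 5′ to 3′ on the strand of the gene, with matches on either strand in capitals to the CCAAT box, to the TATA box letters TATAAA, to the GC box letters GGGCGG or to the AP-1 heptamer TGANTCA.
Col3a1, chr1:45311418-45311537, plus strand: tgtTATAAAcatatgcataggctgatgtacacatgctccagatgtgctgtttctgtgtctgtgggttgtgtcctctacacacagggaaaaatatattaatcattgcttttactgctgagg
Col5a1, chr2:27886305-27886424, plus strand: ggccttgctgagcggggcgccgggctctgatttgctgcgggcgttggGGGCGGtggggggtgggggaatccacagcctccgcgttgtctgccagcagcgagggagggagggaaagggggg
Col5a3, chr9:20815068-20815187, minus strand: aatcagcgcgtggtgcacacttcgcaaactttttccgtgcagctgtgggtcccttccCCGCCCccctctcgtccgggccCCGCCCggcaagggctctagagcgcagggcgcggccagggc
Col6a1, chr10:76726045-76726164, minus strand: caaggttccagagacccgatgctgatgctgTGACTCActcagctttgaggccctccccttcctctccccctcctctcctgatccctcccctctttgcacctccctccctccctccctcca
Col6a3, chr1:90843972-90844091, minus strand: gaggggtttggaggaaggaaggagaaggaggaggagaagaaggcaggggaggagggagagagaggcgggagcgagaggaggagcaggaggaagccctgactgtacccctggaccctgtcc
Serpinh1, chr7:99353240-99353359, minus strand: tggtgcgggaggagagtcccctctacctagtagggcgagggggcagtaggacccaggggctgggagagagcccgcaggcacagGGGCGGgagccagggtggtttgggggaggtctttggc
Col6a1 holds the AP-1 heptamer with its first letter 90 bases before the start, and Col6a3 holds none of the 4 motifs. Of 32851 promoter windows of this length, TGANTCA is found in 3.41%, GGGCGG in 26.5%, CCAAT in 21.3% and TATAAA in 6.34%. Windows were found for 30 of the 37 genes, and among these, counted by gene, TGANTCA was found in 1, GGGCGG in 18, CCAAT in 5 and TATAAA in 3. A gene counts if any of its windows matches, whereas the percentages are shares of windows, so the counts and percentages are not directly comparable. These matches describe letters in the window and carry no measurement of binding.

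Short-chain, fibril-associated and membrane-spanning collagens were mixed. Col8a1, a network collagen of vessel walls, read 8.14 and 9.98 in MEKi 1 and 2, and 9.44 and 7.99 in vehicle 1 and 2. Col16a1, which associates with fibrils, read 7.56 and 9.29 in MEKi 1 and 2, and 8.92 and 7.78 in vehicle 1 and 2. Both were high in MEKi 2 and vehicle 1. Col14a1, another fibril-associated collagen of fibroblasts, read 8.32 and 7.25 in MEKi 1 and 2, and 8.89 and 8.69 in vehicle 1 and 2, with no overlap between labels on this probe set, though 1 of its other probe sets had the opposite sign by label. Col23a1, a membrane-spanning collagen, ran against most of the group and read 5.62 and 4.12 in MEKi 1 and 2, and 4.23 and 5.69 in vehicle 1 and 2. A further probe set of Col23a1, between 3.50 and 3.79, had the opposite sign between MEKi 1 and vehicle 1. Col8a2, Col10a1, Col12a1, Col13a1 and Col17a1 stayed between 3.62 and 4.93 in all arrays.

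The processing genes mostly followed the pattern of opposite differences. Of these, 6 of 7 were lower in MEKi 1 than in vehicle 1 and higher in MEKi 2 than in vehicle 2 (35.3% of all genes). Lysyl hydroxylases prepare collagen for cross-linking. Plod1 read 8.44 and 9.78 in MEKi 1 and 2, and 9.88 and 8.74 in vehicle 1 and 2. Plod2, whose enzyme acts on the ends of the chains, read 8.76 and 10.25 in MEKi 1 and 2, and 9.93 and 8.83 in vehicle 1 and 2. Plod3, whose product also adds glucose to the modified lysines, read 8.41 and 9.63 in MEKi 1 and 2, and 9.64 and 8.83 in vehicle 1 and 2. In all 3 genes MEKi 2 and vehicle 1 were the high arrays.

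Serpinh1, the collagen chaperone, read 10.46 and 11.99 in MEKi 1 and 2, and 11.83 and 10.97 in vehicle 1 and 2, and its second probe set gave the same order between 9.78 and 11.38. Pcolce, an enhancer of procollagen trimming, read 9.62 and 11.81 in MEKi 1 and 2, and 11.20 and 10.24 in vehicle 1 and 2. Its relative Pcolce2 read 7.10 and 9.01 in MEKi 1 and 2, and 10.03 and 8.62 in vehicle 1 and 2. Both were lowest in MEKi 1, and Pcolce2 differed by −2.94 between MEKi 1 and vehicle 1, the largest fall of the group in that pair. P4ha3, a catalytic subunit of prolyl hydroxylase, was near the floor at 4.08 and 3.81 in MEKi 1 and 2, and 4.63 and 4.29 in vehicle 1 and 2. It was the processing gene whose labels did not overlap.

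A further probe set had the opposite sign by label in 6 genes, Col11a1, Col4a1, Col4a3, Col4a4, Col8a1 and Col14a1. Between MEKi 1 and vehicle 1 this held for 4 genes, Col4a3, Col4a4, Col14a1 and Col23a1. Between MEKi 2 and vehicle 2 it held for 4 genes, Col5a3, Col11a1, Col4a3 and Col4a4.

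The comparison by label asks whether trametinib altered expression, and with limma it called 0 of the 37 genes and 0 of 45037 probe sets (0%). For a call, p had to be below 0.05, the fold change above 1.5 and the adjusted p below 0.1, and no Benjamini-Hochberg adjusted p in limma was below 1. Without adjustment, 406 probe sets (0.901%) had p below 0.05, and of the 37 genes 1 did, Col5a3. By label, the log2 fold change of Col5a3 was −2.02 (SE 0.415, 95% interval −3.20 to −0.84, limma adjusted p = 1, n = 2 arrays per label). The next largest falls by label were −1.81 for Col6a3 (SE 0.69), −1.47 for Col5a2 (SE 0.61), −1.42 for Col1a1 (SE 0.55) and −1.27 for Pcolce2 (SE 0.88). Their intervals all reached above 0 and each limma adjusted p was 1. The largest rises were 1.30 for Col4a5 (SE 1.26), 0.73 for Col18a1 (SE 1.28), and 0.35 for Col2a1 (SE 0.21), 0.35 for Col6a2 (SE 0.81) and 0.34 for Col8a1 (SE 0.87), with intervals on both sides of 0. For Col4a1 the by-label value was −0.025 with an interval from −1.93 to 1.88, so 2 arrays a label leave room for a change of nearly 2 units in either direction. The median by label was −0.17 over the 37 genes and 0.01 over all genes.

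**Figure D3:**
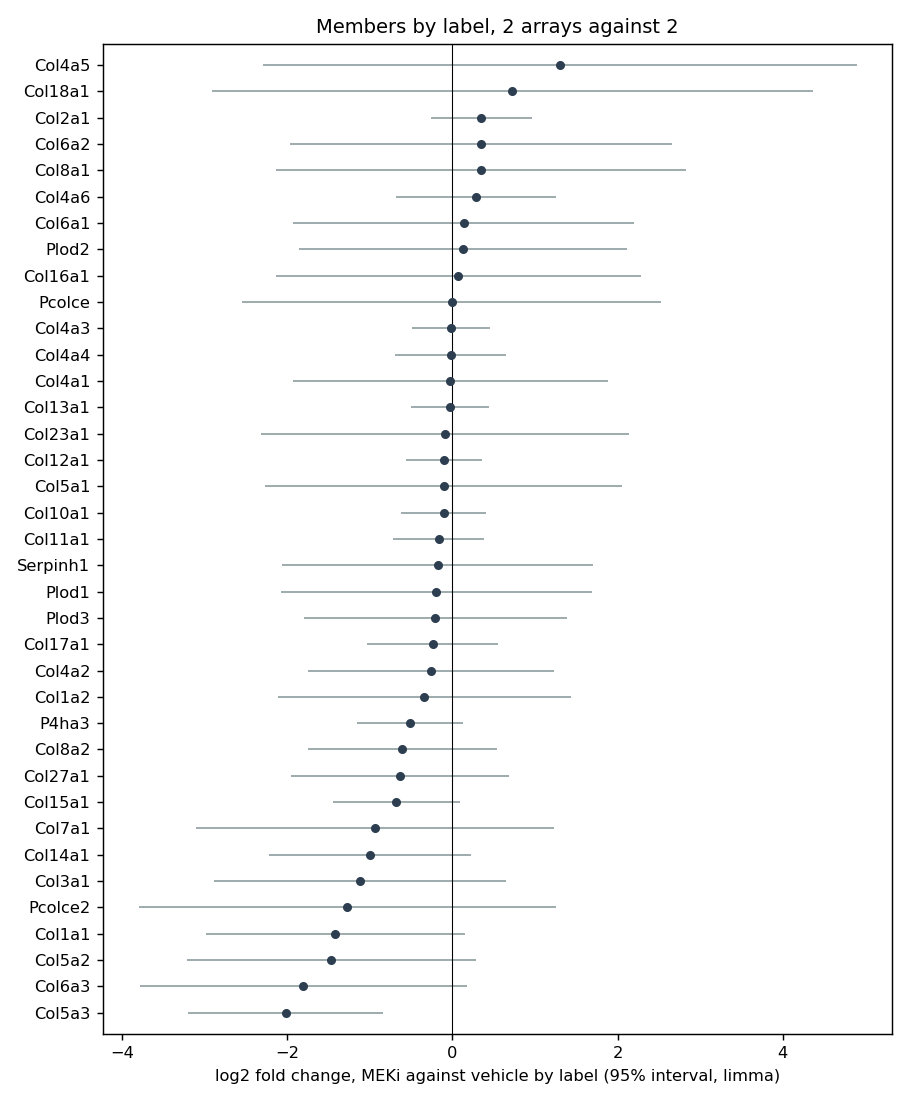
Log2 fold change of each of the 37 genes, MEKi against vehicle by label (horizontal axis, points), with 95% intervals from limma (bars), 2 arrays against 2. Col5a3 at −2.02 is the gene whose interval stays below 0.

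Both MEKi arrays lay below both vehicle arrays for 10 of 37 genes (10.2% of all genes) and above them for 1, Col2a1 (11% of all genes). The 10 were Col1a1, Col3a1, Col5a2, Col5a3, Col6a3, Col14a1 and Col15a1, and Col11a1, Col12a1 and P4ha3 near the floor. When arrays were centred on fibroblast or tumor epithelial genes, which moved the median of all genes by label from 0.01 to 1.06 or 1.14, 2 of 37 genes lay lower in each case, Col5a3 and Col6a3 (0.404% of all genes) or Col1a1 and Col6a3 (0.374%), while 11 or 12 lay higher, against 81.7% or 71.7% of all genes. The by-label difference exceeded the gap within either label for 7 of 37 genes (12.4% of all genes). Without MEKi 2, the array whose Dusp6 goes against its label, MEKi 1 lay below both vehicle arrays for 28 of 37 genes, against 36.1% of all genes, and above both for 3 (31.7%). Without vehicle 2 the numbers were 17 below (24% of all genes) and 2 above (30.5%), without vehicle 1 they were 15 below (26.5%) and 3 above (23.2%), and without MEKi 1 they were 15 below (31.3%) and 13 above (38.9%).

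Of 54 further genes of the collagen pathway, limma called 0 by label (0% of all genes), and 4 had an unadjusted p below 0.05 (1.23%). Lower in MEKi 1 than in vehicle 1 and higher in MEKi 2 than in vehicle 2 were 27 of 54 (35.3% of all genes). Lower in the MEKi array of both pairs were 11 (14.1%), 11 had the reverse order (34.1%) and 5 were higher in both pairs (16.4%). The lists were 12 other collagen chains, 18 other biosynthesis genes, 5 cross-linking enzymes, 10 fibril-associated matrix genes and 9 collagen receptors. The lists differed in this. Of the biosynthesis genes, 11 of 18 were lower in MEKi 1 than in vehicle 1 and higher in MEKi 2 than in vehicle 2 (35.3% of all genes). Of the other collagen chains, 5 of 12 were so and 6 of 12 had the reverse order, with 8 of 12 near the floor in all arrays. Bmp1, the procollagen proteinase that Pcolce enhances, read 8.10 and 10.58 in MEKi 1 and 2, and 10.30 and 8.95 in vehicle 1 and 2. P3h3, of the prolyl 3-hydroxylase family, read 5.76 and 7.94 in MEKi 1 and 2, and 7.11 and 6.45 in vehicle 1 and 2. Both had their high arrays in common with Serpinh1 and Pcolce.

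Cross-linking enzymes were lower in MEKi 1 than in vehicle 1 in 5 of 5 genes (49.4% of all genes). In MEKi 2 they were lower than in vehicle 2 in 3 of 5 (48.3%), and their median by label was −0.73. Lox, lysyl oxidase, read 8.54 and 7.52 in MEKi 1 and 2, and 9.77 and 8.91 in vehicle 1 and 2, with no overlap between labels. Loxl3 instead read 7.47 and 9.53 in MEKi 1 and 2, and 9.48 and 7.90 in vehicle 1 and 2. Among fibril-associated matrix genes (median by label −0.63), Tnxb, which encodes tenascin X, read 6.85 and 5.51 in MEKi 1 and 2, and 9.13 and 7.99 in vehicle 1 and 2, with no overlap. Fmod, which encodes the fibril-binding proteoglycan fibromodulin, read 8.14 and 4.86 in MEKi 1 and 2, and 5.13 and 8.20 in vehicle 1 and 2, so its high arrays were those of the lymphocyte markers.

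The other lists showed smaller differences by label. Of the other collagen chains (median by label −0.09), Col6a4 ran between 4.54 in vehicle 1 and 7.41 in MEKi 1, with 4.84 in MEKi 2 and 6.80 in vehicle 2. Col20a1 was at 5.58 and 4.26 in MEKi 1 and 2, and 4.65 and 5.37 in vehicle 1 and 2. Both were high in MEKi 1 and vehicle 2, as Col23a1 was, but the other probe set of Col6a4 had the opposite sign between MEKi 2 and vehicle 2. Of the collagen receptors (median by label −0.027), the receptor kinase gene Ddr2 read 8.94 and 10.45 in MEKi 1 and 2, and 10.22 and 9.31 in vehicle 1 and 2. Mrc2, an uptake receptor for collagen, read 7.26 and 7.02 in MEKi 1 and 2, and 8.35 and 7.80 in vehicle 1 and 2. Its labels did not overlap on this probe set, but its other probe set had the opposite sign by label and between MEKi 2 and vehicle 2.

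Markers of several cell types moved with the collagen patterns, and in bulk tumor fewer cells of a type and less RNA per cell cannot be told apart. Fibroblast markers had a median of 7.81 and 7.16 in MEKi 1 and 2, and 8.70 and 8.37 in vehicle 1 and 2, the array order of Col1a1, and 6 of 10 were lower in both MEKi arrays than in both vehicle arrays (10.2% of all genes). Fap, Pdpn, Clec3b and Mfap5 were lowest in MEKi 2, at 5.94 to 6.75. The receptor genes Pdgfra and Pdgfrb were instead highest there, at 8.49 and 9.82. Adipocyte markers had a median of 9.77 and 5.99 in MEKi 1 and 2, and 11.00 and 10.44 in vehicle 1 and 2, and 5 of 5 lay lower in both MEKi arrays than in both vehicle arrays, against the same 10.2%. Adipoq, which encodes adiponectin, was at 5.99 in MEKi 2 and between 9.77 and 11.00 elsewhere. Tumor epithelial markers had a median of 6.58 in MEKi 2 and between 8.04 and 8.49 elsewhere, though 5 of 10 were lowest in MEKi 1.

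The array order of Serpinh1 and Col4a1 was instead that of the median of genes induced by ERK signaling. These 13 genes had a median of 7.89 and 9.75 in MEKi 1 and 2, and 9.36 and 8.41 in vehicle 1 and 2. Of the 13, 12 were lower in MEKi 1 than in vehicle 1 and higher in MEKi 2 than in vehicle 2 (35.3% of all genes). The same held for 7 of 9 reference genes, with small median differences of −0.10 and 0.11 in the 2 pairs. Endothelial markers had a median of 7.98 and 8.99 in MEKi 1 and 2, and 9.10 and 8.33 in vehicle 1 and 2, but were mixed. Of these, 4 of 7 were lower in MEKi 1 than in vehicle 1 and higher in MEKi 2 than in vehicle 2 (35.3% of all genes). Kdr and Tek were lower in the MEKi array of both pairs, and Pecam1 had the reverse order. B cell markers ran opposite, with 9.35 and 4.17 in MEKi 1 and 2, and 4.10 and 9.48 in vehicle 1 and 2. So did markers of lymph node stroma and venules, with medians of 8.82 and 3.83 in MEKi 1 and 2, and 3.84 and 9.16 in vehicle 1 and 2. For 6 of 6 of these genes MEKi 1 exceeded vehicle 1, while MEKi 2 fell short of vehicle 2 (34.1% of all genes). Macrophage markers had a median of 9.76 and 10.41 in MEKi 1 and 2, and 11.07 and 10.08 in vehicle 1 and 2. Of these, 7 of 9 were lower in MEKi 1 than in vehicle 1 and higher in MEKi 2 than in vehicle 2 (35.3% of all genes). All 9 were lowest in MEKi 1 (30% of all genes) and highest in vehicle 1 (20.1%). Cartilage and bone markers had medians between 4.46 and 4.97, and Acan was between 3.66 and 4.03, but Sox9 read 6.44 and 8.92 in MEKi 1 and 2, and 8.20 and 6.82 in vehicle 1 and 2, and Comp reached 6.38 in MEKi 2. The part of each of these markers in the collagen differences was not tested.

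**Figure D4:**
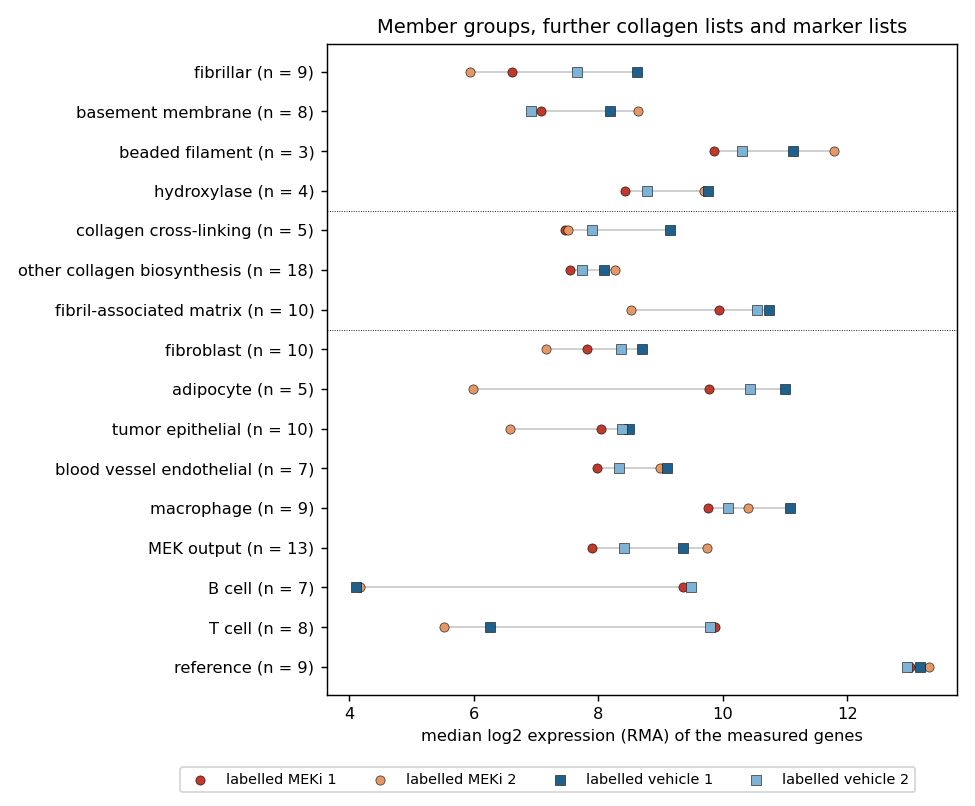
Median log2 expression (RMA, horizontal axis) in each array of 4 groups of the 37 genes (top), 3 further collagen lists (middle) and 9 marker lists (bottom), 1 point per array, with the number of measured genes in parentheses. Fibrillar collagens and fibroblast markers are lowest in MEKi 2, whereas beaded filament chains and hydroxylases have their low points in MEKi 1.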

How the data were processed

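Bulk tumor RNA was hybridized to 4 Affymetrix MG-430PM arrays, 2 labelled MEKi and 2 labelled vehicle. The authors deposited RMA expression on the log2 scale, quantile normalized with AFFY, and the versions of both are not given in the sources used here. Quantile normalization gives the arrays nearly equal distributions, so a change in most genes at once would not be seen. Array medians were 4.98 to 5.14 and the 25th percentiles 3.85 to 3.88. Precision is limited by having 2 arrays per label.

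Of 45141 probe sets, 104 controls were left out. The platform annotation gave 1 symbol for 28898 of the others, several for 551 and none for 15588, and these were unnamed here. By Entrez identifier 28689 probe sets, and all 37 genes, were found in the RefSeq table of GRCm38.p6. Labels were compared with lmFit and eBayes (limma 3.58.1, R 4.3.3), two-sided and without a filter, with Benjamini-Hochberg adjustment over all tested probe sets and the thresholds the study used for its calls. Array values were given by rule for genes with a range of 2 units or more, for type I, III and VI chains, Col4a1, Col4a2 and processing genes, and by-label fold changes for the 5 largest rises and falls. From each further list the 2 genes of widest range were named. Other array values, and the by-label value of Col4a1, were added after their values were seen. The genes, lists and tests were chosen with earlier results of these data known. The fit was tested on simulated data. Alternatives were a stricter adjusted p, an intensity trend, no variance moderation, leaving out the dimmest 0.25 of probe sets, centring on reference, fibroblast or tumor epithelial genes, replicate blocks, each array left out, and averaging the probe sets of a gene. Reference genes had medians of 12.96 to 13.31. Tables and figures were made with Python 3.11.15, pandas 2.3.3 and matplotlib 3.10.9.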

Additional observations from a re-analysis of the deposited data

How the results depend on the processing

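No setting called any of the 37 genes. Over all probe sets the calls by label stayed at 0 except when arrays were centred on fibroblast genes (21 higher, 1 lower) or on tumor epithelial genes (6 higher), settings that add about 1 unit to every by-label value. Under these, the median by label became 0.88 or 0.95 for the 37 genes, 0.96 or 1.03 for other collagen chains, 1.04 or 1.11 for biosynthesis genes, 0.32 or 0.39 for cross-linking enzymes, 0.42 or 0.49 for fibril-associated matrix and 1.02 or 1.09 for receptors. With 1 array left out at a time, no call arose, and the median by label ran from −0.65 to −0.017 for the 37 genes, −0.25 to 0.42 for biosynthesis genes, −1.23 to −0.36 for cross-linking enzymes, −0.18 to 0.04 for other collagen chains, −1.59 to −0.80 for fibril-associated matrix and −0.33 to 0.41 for receptors. The by-label fold change (log2) ran from −0.071 to 2.67 for Col4a5, −0.86 to 2.31 for Col18a1, −0.65 to 1.34 for Col6a2 and −0.57 to 1.26 for Col8a1, each turning negative without MEKi 2, and Col6a2 (−0.091) and Col8a1 (−0.38) also without vehicle 2. The 5 largest falls kept their sign in every such fit, with Col5a3 between −2.51 and −1.53, Col6a3 between −2.66 and −0.95, Col5a2 between −2.17 and −0.77, Col1a1 between −2.09 and −0.75 and Pcolce2 between −2.23 and −0.32. The smallest of these came without MEKi 2 for Col6a3, Col5a2 and Col1a1 and without MEKi 1 for Pcolce2. The mean of the probe sets of Col5a3 gave −1.07, since its second probe set is near the floor. With the replicate number as a block, calls stayed at 0. Deviations of MEKi 1 and vehicle 1 from their label means correlated at −0.76 over probe sets, and a block that crossed the numbers, added after seeing the data, also gave 0 calls. The causes were not tested.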
